A study of Mus musculus with 9 samples.

Results

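Protocadherins are the largest branch of the cadherin superfamily of adhesion proteins, and 34 protocadherin genes were found among the 19938 genes of the table. They were taken as every gene whose symbol is Pcdh or Pcdhb followed by a number and at most 1 letter, each through the feature with the highest mean. Of these, 22 were clustered Pcdhb genes, which stand in a row on chromosome 18, and 12 were non-clustered genes with loci of their own, among them Pcdh1 and Pcdh12, which also lie on chromosome 18. The table held 0 single-symbol Pcdha or Pcdhg genes, so the alpha and gamma clusters were not analysed here beyond 1 feature that covers Pcdha genes together.

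Clustered protocadherins are made by arrays of variable exons, each with its own promoter. Single neurons use different combinations of them, and the proteins recognise identical combinations on other cell surfaces, which lets a neuron tell its own branches from those of others. Promoter choice depends on CTCF, cohesin and distant enhancers, and DNA methylation and repressor complexes keep unchosen promoters silent. Non-clustered protocadherins have their own promoters and fall into the delta-1 group (Pcdh1, Pcdh7, Pcdh9 and Pcdh11x) and the delta-2 group (Pcdh8, Pcdh10, Pcdh17, Pcdh18 and Pcdh19), with Pcdh12, Pcdh15 and Pcdh20 outside both. Classical cadherins bind β-catenin through their cytoplasmic tail, whereas protocadherins lack that tail.

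The samples were mouse embryonic stem (ES) cells of a mixed S129S6-C57BL/6 background, grown on gelatin with serum and leukaemia inhibitory factor at 1000 U/ml and harvested below confluence, with 3 biological replicates in each of 3 groups. Flox cells, the labelled controls, lacked 1 β-catenin allele and carried loxP sites in the other, and null cells lacked both alleles, so every group had lost at least 1. Null Eα cells were null cells stably transfected with an E-cadherin and α-catenin fusion. The labels do not say whether replicates were separate lines, clones or cultures of 1 line, so the p-values measure the spread between these samples, which may be technical, and genotype and line cannot be told apart.

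Values were log2 RMA signals from an Affymetrix whole-transcript array, 1 per transcript cluster and array, and differences are in log2 units (1 unit is 2-fold). Array medians lay between 5.95 and 6.06. The transcript cluster of Ctnnb1, the β-catenin gene, read 11.13, 11.13 and 11.21 on the flox arrays, 10.55, 10.50 and 10.47 on the null arrays and 10.23, 10.13 and 10.32 on the null Eα arrays; which exons its probes cover was not tested, so it is a weak check of the deletion. Of 10 ES cell markers, 9 fell and 1 rose in null cells (median difference -1.90), while in null Eα cells 6 fell and 0 rose against flox (median -0.38). Dppa5a was at 12.68 in flox, 6.06 in null and 12.30 in null Eα cells, and Esrrb and Nanog, transcription factors of ES cells, fell by differences of -5.54 and -2.46 in null cells. By these levels the labelled cell type was marked in flox and null Eα cells and only in part in null cells, where Pou5f1 was at 10.79. Null Eα replicate 3 correlated with the null arrays at 0.978 to 0.980 over all features, above null Eα replicates 1 and 2 at 0.964 to 0.970. With the flox arrays all null Eα arrays correlated at 0.945 to 0.956, below their values with the null arrays.

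Null against flox asks what changes when the second β-catenin allele is lost, and 55.2% of all genes were called in it, 26.5% higher and 28.7% lower. Calls were made with limma's moderated test at an adjusted p under 0.05 (Benjamini-Hochberg over all 19938 genes). Non-clustered protocadherins were mostly higher in null cells: 8 of 12 rose and 0 fell, with a median difference of 0.58 beside 0.06 over all genes. Of the Pcdhb genes, 10 of 22 rose and 0 fell, with a median of 0.27 and no member reaching 2-fold. Of the 12 non-clustered genes, 4 rose at least 2-fold, as did 5.03% of all genes. Flox and null values did not overlap for 10 of 12 non-clustered and 19 of 22 Pcdhb genes, against 67.4% of all genes.

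Null Eα against flox gave calls in 63.7% of genes, 32.1% higher and 31.6% lower. Of the Pcdhb genes, 20 of 22 rose and 0 fell, with a median difference of 0.47 beside 0.07 over all genes, and again no member reached 2-fold. Of the non-clustered genes, 6 of 12 rose and 0 fell, with a median of 0.44, and 3 rose at least 2-fold, as did 2.22% of all genes. The groups did not overlap for 19 of 22 Pcdhb genes and 8 of 12 non-clustered genes, against 69.5% of all genes. The comparison shares its flox arrays with null against flox, so the values of each stand side by side.

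Null Eα against null, the direct comparison of cells with and without the fusion, gave calls in 31.7% of genes, 13.6% higher and 18.1% lower. The non-clustered genes divided: 4 fell (Pcdh9, Pcdh11x, Pcdh17 and Pcdh18), 1 rose (Pcdh15), and the median was -0.20 beside 0.05 over all genes. Of the 22 Pcdhb genes, 4 rose (Pcdhb2, Pcdhb3, Pcdhb8 and Pcdhb18) and 0 fell, with a median of 0.16. Values of the 2 groups did not overlap for 4 of 12 non-clustered and 6 of 22 Pcdhb genes, against 43.1% of all genes.

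Promoters of 9 non-clustered members matched the RefSeq table (build GRCm38.p6), 1 window each but 2 for Pcdh9, as windows of 250 bases before and 50 after the gene's start. Shown are the bases before the start that lie outside the annotated gene, 5′ to 3′ on the gene's strand, with CpG dinucleotides in capitals, because DNA methylation at CpG is a known control of protocadherin promoters. Pcdh18 (chr3:49757384-49757566, minus strand) and Pcdh17 (chr14:84443313-84443562, plus strand) rose in null cells. Pcdh10 (chr3:45378148-45378397, plus strand) was not called. Pcdh20 (chr14:88471397-88471646, minus strand) rose in null cells and stands for a window with fewer CpG than the others shown.
Pcdh18: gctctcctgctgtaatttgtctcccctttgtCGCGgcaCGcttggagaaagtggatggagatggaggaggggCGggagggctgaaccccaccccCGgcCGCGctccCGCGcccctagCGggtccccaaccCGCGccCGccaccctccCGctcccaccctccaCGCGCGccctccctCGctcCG
Pcdh17: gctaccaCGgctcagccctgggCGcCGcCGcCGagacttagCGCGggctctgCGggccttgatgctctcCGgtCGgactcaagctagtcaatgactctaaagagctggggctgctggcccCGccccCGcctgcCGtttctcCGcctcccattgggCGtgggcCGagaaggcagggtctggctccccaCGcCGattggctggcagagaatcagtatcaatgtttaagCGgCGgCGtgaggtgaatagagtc
Pcdh10: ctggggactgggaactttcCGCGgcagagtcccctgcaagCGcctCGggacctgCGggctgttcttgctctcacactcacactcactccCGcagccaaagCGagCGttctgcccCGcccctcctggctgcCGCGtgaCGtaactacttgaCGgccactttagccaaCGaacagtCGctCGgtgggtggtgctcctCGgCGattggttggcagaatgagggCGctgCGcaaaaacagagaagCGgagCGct
Pcdh20: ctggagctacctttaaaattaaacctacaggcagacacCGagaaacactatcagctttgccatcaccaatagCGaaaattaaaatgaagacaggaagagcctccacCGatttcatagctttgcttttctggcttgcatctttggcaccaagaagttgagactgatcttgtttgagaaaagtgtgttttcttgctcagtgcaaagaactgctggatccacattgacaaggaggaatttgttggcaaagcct
The 300-base windows held 23 CpG for Pcdh18, 26 for Pcdh17, 24 for Pcdh10 and 4 for Pcdh20, beside a median of 7 and quartiles of 3 and 20 over all promoters. Of these genes, Pcdh18, Pcdh17 and Pcdh20 rose in null cells and Pcdh10 did not pass the test, and methylation was not measured. The core motif of the TCF/LEF factors through which β-catenin acts on transcription, CTTTGA on either strand, had 1 match in 1 of the 9 members, Pcdh7, and was present in 16% of 32851 promoters.

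Pcdh18, a delta-2 protocadherin that binds the adaptor Dab1 (transcript cluster 10498018, chromosome 3), had the largest rise of the 34 genes in null cells. Its values were 5.29, 5.42 and 5.21 in flox, 7.85, 7.38 and 7.28 in null, and 6.40, 6.10 and 6.67 in null Eα cells. The 3 groups did not overlap, and null Eα lay between the others. Null cells were 2.19 ± 0.17 above flox (limma, SE, n = 3 arrays per group, adjusted p = 1.62e-06), a 4.57-fold rise. Null Eα cells were 1.08 ± 0.17 above flox (adjusted p = 3.17e-04) and 1.11 ± 0.17 below null cells (adjusted p = 8.07e-04), that is 2.16-fold lower than null. These were its calls under each alternative tried.

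Pcdh7, a delta-1 protocadherin known from axon growth and bone-resorbing cells (10521972, chromosome 5), also rose over 4-fold in null cells. It read 4.65, 4.77 and 4.58 in flox, 6.64, 6.78 and 6.71 in null, and 6.73, 6.11 and 5.99 in null Eα cells. Both groups without β-catenin stood clear of flox, and null Eα replicate 1 lay within the null range. The differences from flox were 2.04 ± 0.16 in null (limma adjusted p = 2.24e-06, 4.12-fold) and 1.61 ± 0.16 in null Eα cells (adjusted p = 1.65e-05, 3.05-fold). Null Eα against null differed by -0.44 ± 0.16 (adjusted p = 0.0678). That difference passed the threshold without null Eα replicate 1 (-0.66, adjusted p = 0.00109) and with array medians aligned (-0.48, adjusted p = 0.0488).

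Pcdh17, a delta-2 protocadherin that recruits the WAVE actin regulators in axons (10416700, chromosome 14), repeated the order seen in Pcdh18. Values were 5.54, 5.61 and 5.37 in flox, 6.69, 6.58 and 6.76 in null, and 6.05, 6.17 and 6.17 in null Eα cells. All 3 groups stood apart, with a narrower spread than in Pcdh18. Null cells exceeded flox by 1.17 ± 0.09 (limma adjusted p = 1.24e-06, 2.24-fold) and null Eα cells by 0.62 ± 0.09 (adjusted p = 1.46e-04), and null Eα lay 0.54 ± 0.09 below null (adjusted p = 0.00104).

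Pcdh9, a neuronal delta-1 member on chromosome 14, was at 4.84, 4.74 and 4.74 in flox, 5.44, 5.57 and 5.43 in null, and 5.28, 5.20 and 5.25 in null Eα cells. The order of the groups was again flox, null Eα, null, over a smaller span. The rises against flox were 0.71 ± 0.07 (limma adjusted p = 1.17e-05) and 0.47 ± 0.07 (adjusted p = 2.56e-04), and null Eα fell by 0.24 ± 0.07 against null (adjusted p = 0.0285). The last call was lost without null replicate 2 (-0.19), without null Eα replicate 2 (-0.22), with the mean of both features (-0.20), with only these groups in the fit (-0.24) and with each chromosome centred (-0.16). A second Pcdh9 feature differed by 0.70 and 0.53 from flox, and by -0.17 between null Eα and null.

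Pcdh11x, the X-linked delta-1 member, had the widest spread among the null Eα arrays. It read 3.92, 4.07 and 3.87 in flox, 5.02, 5.15 and 5.10 in null, and 4.24, 3.77 and 5.05 in null Eα cells. Null Eα replicate 3 sat among the null arrays, whereas null Eα replicate 2 was below all flox arrays. The gene was dim: its means of 3.95 in flox and 4.35 in null Eα cells lay under the lower quartile of all features (4.38 and 4.60). Its null mean of 5.09 lay above that quartile (4.53). Null cells were 1.14 ± 0.25 above flox (limma adjusted p = 0.00273, 2.20-fold), and null Eα cells differed from flox by 0.40 ± 0.25 (adjusted p = 0.175). The second difference passed without null Eα replicate 2 (0.69, adjusted p = 0.0148) and with each chromosome centred (0.61, adjusted p = 0.0288). After quantile normalization it was 0.20 (limma adjusted p = 0.546). Null Eα lay 0.74 ± 0.25 below null (adjusted p = 0.0445). Leaving out any array but null Eα replicate 3 ended that call, with differences of -0.77 to -0.45 (adjusted p = 0.0638 to 0.136), as did all features in the fit, only these groups in the fit and chromosome centring (adjusted p = 0.0827, 0.1 and 0.0698).

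Pcdh1, the delta-1 protocadherin of epithelia, read 5.83, 5.70 and 5.75 in flox, 6.71, 6.25 and 6.12 in null, and 5.69, 5.54 and 6.28 in null Eα cells. Flox and null did not overlap, while null Eα had 2 arrays below every flox array and 1 within the null range. Null cells were 0.60 ± 0.19 above flox (limma adjusted p = 0.022), and leaving out flox replicate 2 (0.57), the third flox array (0.60) or null replicate 1 (0.43) ended the call. Null Eα differed from flox by 0.08 ± 0.19 (adjusted p = 0.733) and from null by -0.52 ± 0.19 (adjusted p = 0.0624). These became -0.14 and -0.74 without null Eα replicate 3, the second with an adjusted p of 0.00404. The difference from null also passed after quantile normalization (-0.60, adjusted p = 0.0492) and with array medians aligned (-0.57, adjusted p = 0.0474).

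The other delta-2 genes gave no call in the fit of the deposited values on all 9 arrays. Pcdh19, mutated in an X-linked epilepsy, had 6.04, 5.81 and 6.00 in flox, 5.94, 5.72 and 5.37 in null and 5.83 on each null Eα array, identical values that the deposited table holds. Its null difference was -0.27 ± 0.13 (limma adjusted p = 0.0968), or -0.40 without null replicate 1 (adjusted p = 0.017). Pcdh8, the paraxial protocadherin of segmenting mesoderm, differed by -0.01 ± 0.14 and 0.15 ± 0.14 from flox (adjusted p = 0.973 and 0.355). The second of these passed with each chromosome centred (0.31, limma adjusted p = 0.0475) and was -0.05 after quantile normalization. Pcdh10, also called OL-protocadherin, differed by 0.24 ± 0.10 in null (adjusted p = 0.0706) and 0.23 ± 0.10 in null Eα cells (adjusted p = 0.0761). Its null difference passed without null Eα replicate 2, with only these groups in the fit and with arrays centred on tested genes (adjusted p = 0.0459, 0.0484 and 0.0252). Its null Eα difference passed with arrays centred on tested genes and with each chromosome centred (adjusted p = 0.0356 and 0.0241). Those settings called 39.3% and 52.5% of all genes higher in null Eα against flox. Of genes with a mean under the lower quartile of all features, they called 61.4% and 85.2% higher. After quantile normalization the null and null Eα differences of Pcdh10 were 0.09 and 0.01 (limma adjusted p = 0.468 and 0.961).

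Pcdh15, a component of the tip links of inner-ear hair cells (10363915, chromosome 10), was the non-clustered gene that rose against both flox and null in null Eα cells. It had values of 5.06, 4.97 and 4.79 in flox, 5.46, 5.51 and 5.50 in null, and 5.71, 6.13 and 6.09 in null Eα cells. The groups stood apart with null Eα highest. The rises were 0.55 ± 0.12 in null (limma adjusted p = 0.00222) and 1.04 ± 0.12 in null Eα cells (adjusted p = 3.08e-05, 2.05-fold), with 0.49 ± 0.12 between null Eα and null (adjusted p = 0.0094). A second, dimmer feature of the gene differed by 0.10, 0.36 and 0.25 in the same comparisons, of which the middle one passed (adjusted p = 0.0273 over all features).

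Pcdh12, known as a junctional protein of endothelial cells, had 5.51, 5.30 and 4.99 in flox, 5.59, 5.62 and 5.60 in null, and 5.88, 6.00 and 5.59 in null Eα cells. Its rise in null Eα cells was 0.56 ± 0.14 (limma adjusted p = 0.0053), while null cells differed by 0.34 ± 0.14 (adjusted p = 0.0593). The null difference passed without flox replicate 1 (0.46, adjusted p = 0.0193) or null Eα replicate 3 (adjusted p = 0.0328). It also passed with only these groups in the fit, with a replicate block and with arrays centred on tested genes (adjusted p = 0.0465, 0.0275 and 0.0256). Of 12 endothelial markers, 3 rose and 5 fell in null cells and 5 rose and 5 fell in null Eα cells (medians 0.02 and 0.12). Among its receptor genes, Tek fell by 1.99 and Robo4 fell by 1.40 in null cells, and Flt1 rose by 2.06. The summed linear signal of the 12 was 1114 to 1166 in flox, 901 to 942 in null and 970 to 1000 in null Eα cells, and Cdh5, which encodes the endothelial cadherin, differed by 0.15 and 0.27; their part in the Pcdh12 result was not tested.

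Pcdh20 was dim throughout, with 3.98, 3.90 and 3.82 in flox, 4.27, 4.54 and 4.12 in null, and 4.32, 3.99 and 4.12 in null Eα cells. The rise in null cells of 0.41 ± 0.12 (limma adjusted p = 0.0144) was a call lost after quantile normalization (0.25), without flox replicate 3 (0.37) and without null replicate 2 (0.29).

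**Figure D1:**
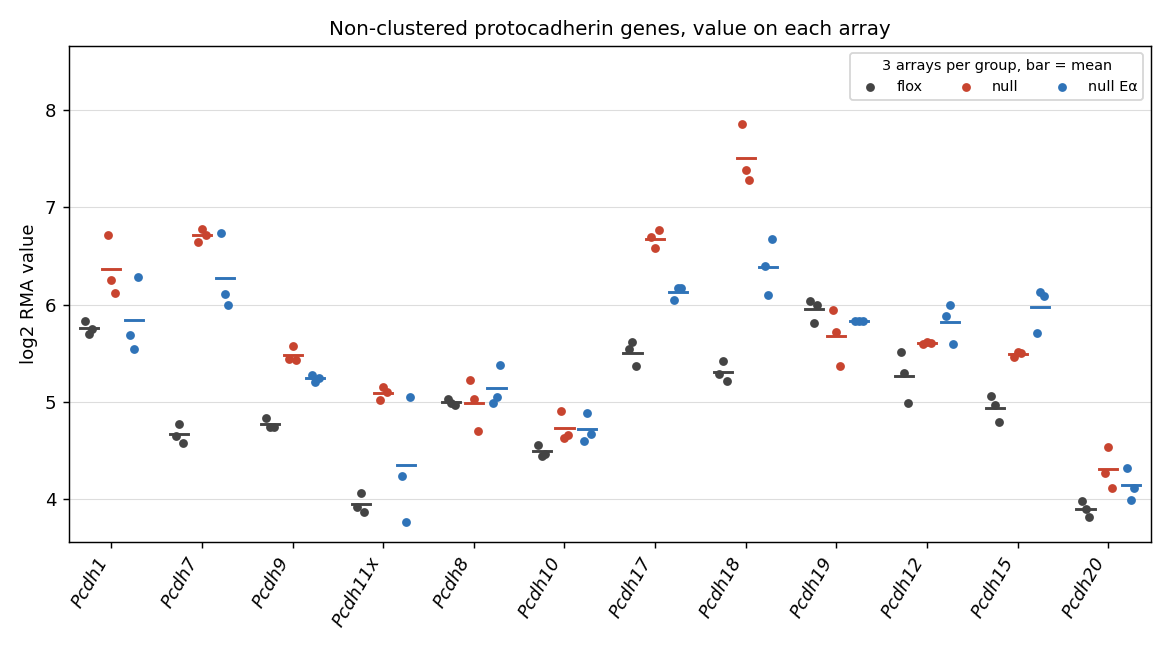
Log2 RMA value of each of the 12 non-clustered protocadherin genes (x axis) on each of the 9 arrays (points), with 3 arrays per group and a bar at the group mean. Pcdh18 and Pcdh17 show 3 separate groups with null Eα between flox and null, Pcdh15 has null Eα on top, and the null Eα values of Pcdh11x spread from 3.77 to 5.05.

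Markers of other cell types moved with the same comparisons. Of 13 fibroblast markers, 11 rose and 0 fell in both null and null Eα cells (medians 2.10 and 1.86), and 7 fell and 0 rose in null Eα against null (median -0.78). Lox, Col1a2 and Col1a1, which build and cross-link collagen, rose by 5.41, 4.82 and 4.28 in null cells, and Dcn, Postn and Twist2 rose as well, while Lum, at 3.06 in flox and 4.61 in null, differed by 1.54 without passing (limma adjusted p = 0.071). The summed linear signal of the 13 was 699 to 810 in flox, 7592 to 9413 in null and 3739 to 4817 in null Eα cells. The means of Pcdh18, Pcdh17, Pcdh9 and Pcdh7 had the same order of groups, as did those of Pcdh1, Pcdh10, Pcdh11x and Pcdh20. Of these genes, only Pcdh9, Pcdh11x, Pcdh17 and Pcdh18 were called lower in null Eα than in null cells. In bulk RNA, a change in the share of cells of a type and a change in RNA per cell cannot be told apart, and the part of such cells in the protocadherin results was not tested.

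Neural markers, of interest because many protocadherins are neuronal, moved both ways: 5 of 14 rose and 6 fell in null cells, 3 rose and 5 fell in null Eα cells, and 3 rose and 2 fell in null Eα against null, with medians of -0.16, -0.16 and 0.02. Stmn2, a neuronal microtubule regulator, fell by 3.30 in null cells, Pax6 fell by 1.16 and Elavl3 fell by 1.02. Nes rose by 2.38, Ncam1 by 0.56 and Sox1 by 0.51. The summed linear signal was 3610 to 3885 in flox, 1466 to 1968 in null and 2416 to 2736 in null Eα cells. Stmn2 held most of it in flox, and without Stmn2 the sum in null lay above flox. The other 13 summed to 1029 to 1067, 1287 to 1378 and 1082 to 1325. These 13 include Nes, which rose by 2.38 in null cells, so their sum does not show that the remaining markers rose together. A sum without Nes was not computed. Paraxial mesoderm markers, the home of Pcdh8, gave 5 rises and 3 falls of 12 in null, 6 and 1 in null Eα, and 3 and 0 between them. Tcf15 and Dll3 each fell by 0.94 in null cells, and Hes7 rose by 0.62.

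The genes whose values ran most like those of the non-clustered members called in at least 2 comparisons were found by Pearson correlation over the 9 arrays, a description in which 3 group levels set most of each value. Pcdh7 ran with Emp1 (0.997), Sema3a (0.996) and Lmna (0.990). Pcdh9 ran with the matrix and receptor genes Ltbp2 (0.993), Col5a2 (0.992) and Pdgfrb (0.992), the last also on the fibroblast list. Pcdh17 ran with Dcaf12l1 (0.994), Ahnak (0.993) and Ccdc80 (0.991), and Pcdh18 with Txndc5 (0.991), Mgat1 (0.991) and Ddx1 (0.989). The genes nearest to Pcdh11x were Mmp25 (0.982), Dgkd (0.981) and Ppp4r4 (0.981), and those nearest to Pcdh15 were Ltf (0.995), Kcnd3os (0.994) and Rgsl1 (0.993).

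The Pcdhb genes were dim on every array. The mean of 18 of 22 in flox, 17 in null and 17 in null Eα cells lay under the lower quartile of all features (4.38, 4.53 and 4.60), a place within the array's values that serves only as a guide, since probes of different genes differ in response and signal over background was not measured. The median over the 22 genes was 3.72, 3.72 and 3.59 on the flox arrays, 4.17, 4.06 and 4.04 on the null arrays, and 4.35, 4.28 and 4.27 on the null Eα arrays, so the medians of the groups did not overlap. The median of 1027 olfactory receptor genes, a dim family chosen after the values were seen, also did not overlap, at 3.48 to 3.50 in flox, 3.59 to 3.61 in null and 3.66 to 3.75 in null Eα cells. Members differed among themselves in size: null against flox ranged from 0.08 (Pcdhb1) to 0.81 (Pcdhb22), and null Eα against flox from 0.17 (Pcdhb9) to 0.92 (Pcdhb22).

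Pcdhb22, the last gene of the row (10455139), had the largest change of the cluster against flox. It read 4.21, 4.42 and 4.23 in flox, 5.19, 5.24 and 4.85 in null, and 5.46, 4.81 and 5.34 in null Eα cells. The null and null Eα arrays overlapped each other and stood above flox. The rises were 0.81 ± 0.17 (limma adjusted p = 0.00196, 1.75-fold) and 0.92 ± 0.17 (adjusted p = 8.53e-04, 1.89-fold).

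Pcdhb16 had 3.37, 3.52 and 3.44 in flox, 4.14, 4.07 and 3.96 in null, and 3.92, 4.31 and 4.52 in null Eα cells. It rose by 0.61 ± 0.13 (limma adjusted p = 0.00276) and 0.81 ± 0.13 (adjusted p = 4.83e-04). Its neighbour Pcdhb15 had 4.60, 4.70 and 4.44 in flox, 4.90, 5.21 and 5.12 in null, and 5.20, 5.24 and 5.26 in null Eα cells, rises of 0.50 ± 0.10 and 0.66 ± 0.10 (adjusted p = 0.00136 and 2.22e-04). Each gene stood above flox on all 6 arrays without β-catenin, as did Pcdhb3 and Pcdhb7. This was common in the cluster, where 19 of 22 genes did not overlap flox in null and 19 of 22 in null Eα cells. Of all genes, 67.4% and 69.5% did not overlap flox in these comparisons. Pcdhb3 rose by 0.36 ± 0.08 and 0.63 ± 0.08 (adjusted p = 0.00199 and 5.14e-05), and Pcdhb7 by 0.49 ± 0.12 and 0.70 ± 0.12 (adjusted p = 0.00453 and 5.00e-04).

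Pcdhb8 was the one Pcdhb gene whose rise in null Eα over null was called under every alternative. It read 4.41, 4.47 and 4.35 in flox, 4.71, 4.65 and 4.57 in null, and 4.85, 5.02 and 5.03 in null Eα cells, a step at each group. Null Eα lay 0.56 ± 0.08 above flox (limma adjusted p = 1.59e-04) and 0.33 ± 0.08 above null (adjusted p = 0.0106). Its rise in null cells, 0.24 ± 0.08 (adjusted p = 0.0271), was lost after quantile normalization (0.08), with array medians aligned (0.20), and without flox replicate 1 (0.24) or 3 (0.20) or null replicate 1 (0.20) or 2 (0.23).

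Pcdhb2 had values of 3.87, 4.05 and 3.87 in flox, 4.18, 4.17 and 4.08 in null, and 4.52, 4.34 and 4.50 in null Eα cells. Null cells differed from flox by 0.21 ± 0.08 (limma adjusted p = 0.0508). It rose by 0.52 ± 0.08 in null Eα against flox (limma adjusted p = 3.49e-04) and by 0.31 ± 0.08 against null (adjusted p = 0.0162), the second lost without null replicate 3 or null Eα replicate 1 (0.28 each). Without null replicate 3, 1 of the 22 Pcdhb genes was called in null Eα against null, instead of 4. Without flox replicate 3, 13 were called in null Eα against flox, instead of 20. With 1 array left out at a time, 23.7% to 39.4% of all genes were called in null Eα against null. In null Eα against flox it was 54.1% to 65.4%. The shares of all genes in these exact fits are not given here, so the lost calls cannot be read as particular to Pcdhb genes.

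At the dim end, Pcdhb9 had 2.83, 2.85 and 2.94 in flox, 3.02, 3.16 and 2.89 in null and 2.90, 3.21 and 3.01 in null Eα cells, differences of 0.15 ± 0.10 and 0.17 ± 0.10 from flox (limma adjusted p = 0.221 and 0.158). Pcdhb19 differed by 0.41 ± 0.17 and 0.36 ± 0.17 (adjusted p = 0.0569 and 0.0826). These were the genes of the cluster without a call in null Eα against flox. Pcdhb4 read 4.82 on all 3 null arrays, another set of identical values. Values equal in every deposited digit on a pair of arrays occurred for 635 to 1718 features within groups and 457 to 1256 between groups.

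**Figure D2:**
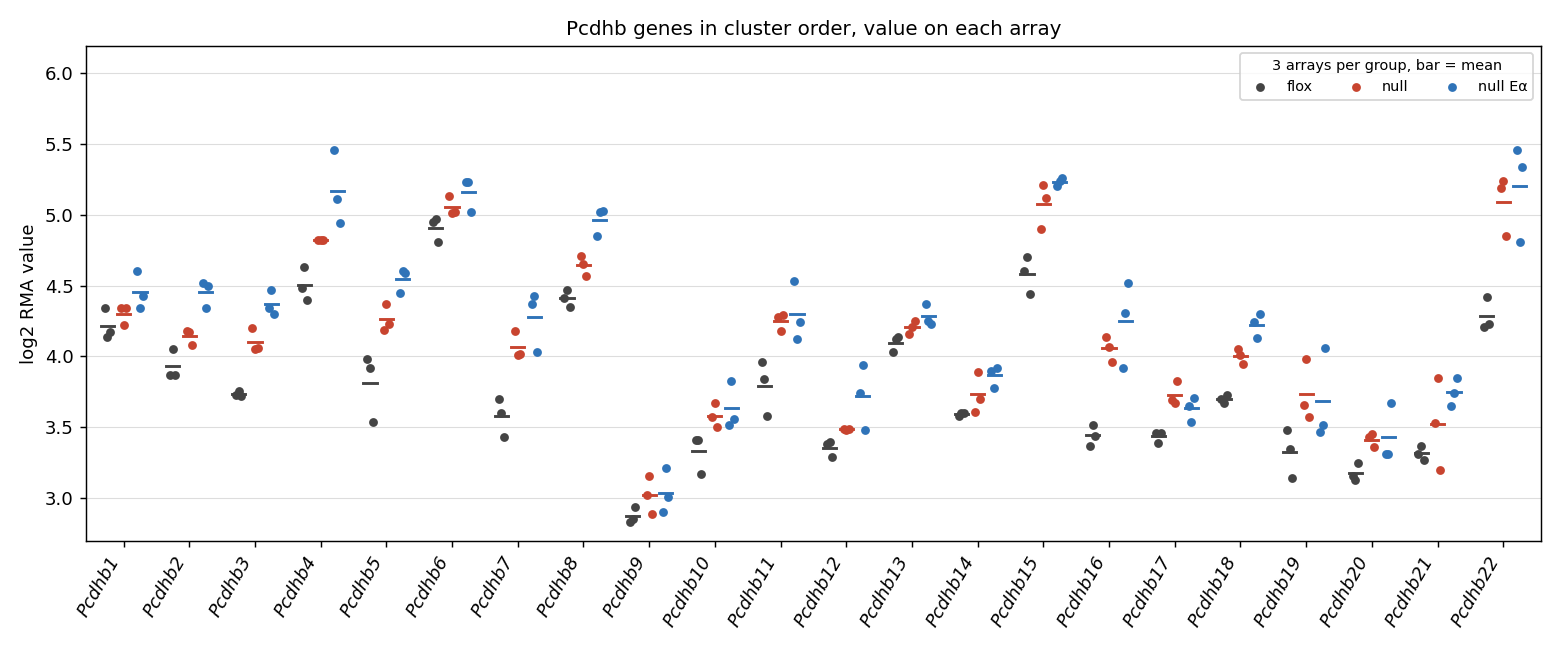
Log2 RMA value of the 22 Pcdhb genes, in cluster order on the x axis, on each of the 9 arrays (points), with 3 arrays per group and a bar at the group mean. For most genes the null and null Eα points lie above flox, with the largest mean differences from flox in Pcdhb22 (0.81 and 0.92) and Pcdhb16 (0.61 and 0.81), and the lowest values in Pcdhb9.

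A shift of dim genes moved with the Pcdhb result. The arrays were narrower in the groups without β-catenin: the lower quartile of all features spanned 4.37 to 4.40 in flox, 4.52 to 4.55 in null and 4.56 to 4.63 in null Eα cells, and the upper quartile 8.15 to 8.21, 7.93 to 7.99 and 7.83 to 7.93. Among the 3749 genes with a mean under the lower quartile, 19.4% were called higher in null and 43.1% in null Eα against flox, with medians of 0.12 and 0.22, and 6.30% in null Eα against null. The olfactory receptor genes, which serve odour sensing, had medians of 0.12 and 0.22 and were called higher in 16.0% and 42.8%, and in 6.91% between null Eα and null. The Pcdhb medians of 0.27 and 0.47 lay above both, and genes at or above the median of all features shifted the other way, by -0.13 and -0.25.

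Quantile normalization, which gives all arrays the same distribution, took the median of the dim genes to -0.02 and 0.03 and that of the Pcdhb genes to 0.13 and 0.27. After it 5 of 22 Pcdhb genes were called higher in null cells (Pcdhb3, Pcdhb7, Pcdhb15, Pcdhb16 and Pcdhb22), 10 in null Eα cells (those 5 with Pcdhb2, Pcdhb4, Pcdhb5, Pcdhb8 and Pcdhb18) and 2 in null Eα against null (Pcdhb2 and Pcdhb8), and 0 fell. Of all genes, 24.2% were then called higher and 26.6% lower in null, 24.8% and 26.4% in null Eα against flox, and 14.4% and 15.8% in null Eα against null; of the dim genes, 5.65% and 9.10% were called higher against flox. The non-clustered genes lost 1 call against flox, that of Pcdh20 in null cells, and kept 7 and 6, and in null Eα against null they gained 1, Pcdh1 (-0.60, limma adjusted p = 0.0492), to 6. Which of the scales is nearer to RNA amounts was not tested.

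**Figure D3:**
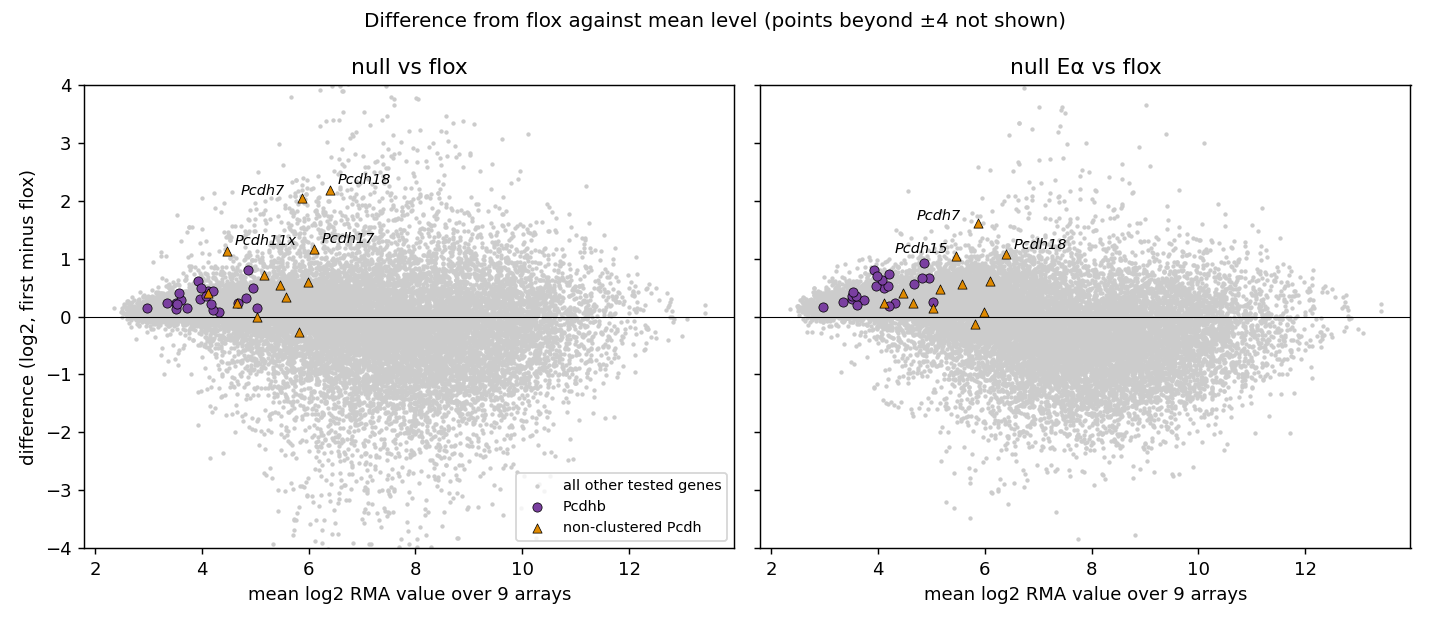
Difference from flox (y axis, log2) against the mean log2 RMA value over 9 arrays (x axis) for all tested genes (grey), with the 22 Pcdhb genes as circles and the 12 non-clustered genes as triangles; null on the left, null Eα on the right. The Pcdhb genes sit at low values and above 0, and Pcdh7 and Pcdh18 stand highest among the members in both panels.

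**Figure D4:**
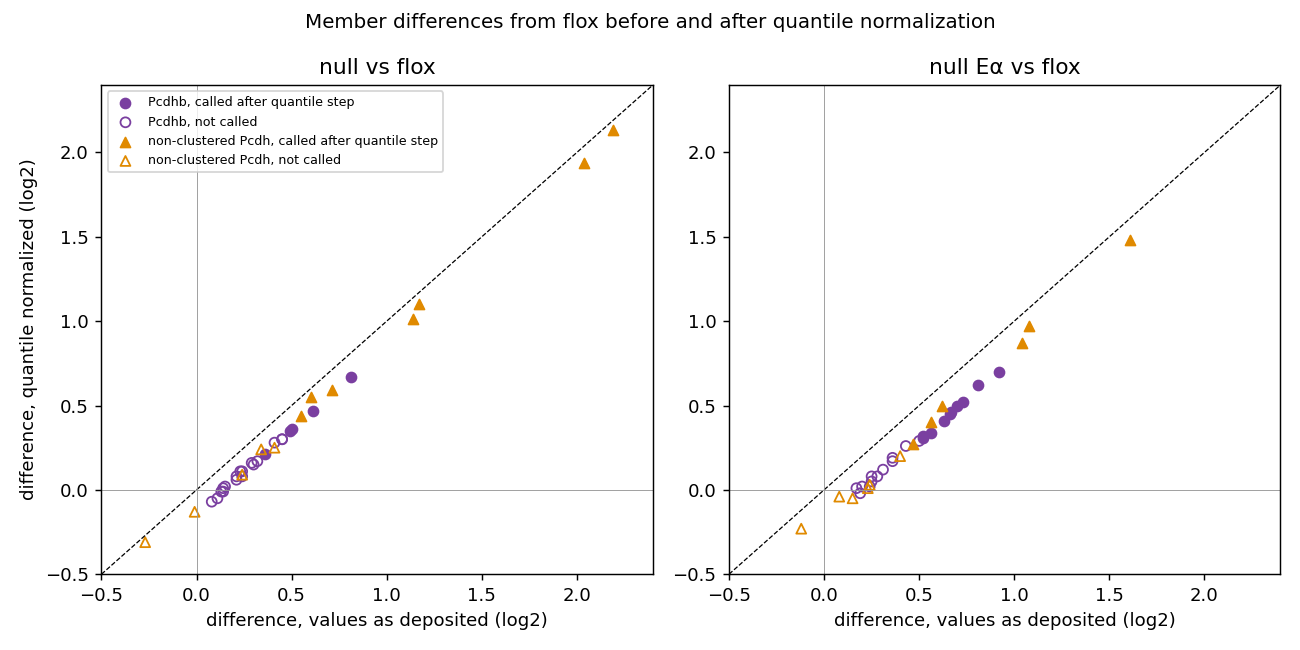
Difference from flox of the 34 protocadherin genes after quantile normalization (y axis, log2) against the difference in the deposited values (x axis, log2), with filled marks for genes called after normalization and a dashed line of equality. The points lie below the line, 5 Pcdhb genes stay called in null and 10 in null Eα cells, and 7 and 6 non-clustered genes stay called.

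The Pcdhb genes' neighbours on chromosome 18 held both rises and falls against flox. Of all genes, 26.5% rose and 28.7% fell in null cells, and 32.1% rose and 31.6% fell in null Eα cells. Between null Eα and null, 13.6% rose and 18.1% fell. Untested genes, such as the single Pcdha and Pcdhg genes, were passed over when neighbours were chosen. Of the 5 nearest tested genes on each side (Gm6756, Vaultrc5, Zmat2, Hars2 and Hars before, Slc25a2, Taf7, Diaph1, Hdac3 and Rell2 after), 3 rose and 1 fell in null cells, 3 rose and 2 fell in null Eα cells, and 0 rose and 3 fell in null Eα against null. Zmat2, a splicing factor gene, rose in null cells by 0.62 ± 0.07 (limma adjusted p = 1.61e-05), and Diaph1, a formin that builds actin filaments, fell by 0.46 ± 0.08 (adjusted p = 6.65e-04). Slc25a2, a mitochondrial carrier that stands next to the Pcdhb row and was at 4.81 in flox, differed by 0.02 ± 0.08 and 0.11 ± 0.08 from flox (adjusted p = 0.873 and 0.26). Taf7, a subunit of the general transcription factor TFIID, rose in null Eα cells by 0.38 ± 0.12 (adjusted p = 0.0202). The 273 brighter genes of chromosome 18 had medians of 0.00 and -0.11, beside -0.13 and -0.25 over brighter genes of all chromosomes. For chromosome 3, which carries Pcdh18, the medians were 0.15 and -0.09, and Pcdh18 kept its calls with each chromosome centred.

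Known regulators of clustered protocadherin promoters moved both ways, with 9 of 20 higher and 6 lower in null cells, 7 and 4 in null Eα cells, and 6 and 4 in null Eα against null. Trim28, a corepressor that holds silenced chromatin, was lower in null cells (-0.70 ± 0.08, limma adjusted p = 2.88e-05) and null Eα cells (-0.23 ± 0.08, adjusted p = 0.029). The cohesin genes Stag1 and Smc1a rose by 0.78 ± 0.09 and 0.67 ± 0.09 in null cells and by 0.83 ± 0.09 and 0.61 ± 0.09 in null Eα cells. The list's medians were -0.03, 0.01 and -0.02, and 0.14, 0.29 and 0.12 after quantile normalization, when 9 rose and 3 fell, 12 rose and 1 fell, and 7 rose and 4 fell.

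Genes of the intracellular partners and processing of protocadherins, which include the WAVE complex that delta-2 members recruit, gave 5 rises and 7 falls of 18 in null cells, 2 and 10 in null Eα cells, and 0 and 9 in null Eα against null. The WAVE subunit genes Wasf2 and Brk1 both fell, by differences of -1.65 ± 0.08 and -1.63 ± 0.09 in null cells (limma adjusted p = 9.79e-08 and 1.47e-07) and -1.69 and -1.93 in null Eα cells. Nckap1, which encodes another subunit of the same complex, rose by 0.91 ± 0.07 and 0.63 ± 0.07. The list's medians were 0.09, -0.39 and -0.26 as deposited and 0.27, -0.06 and -0.19 after quantile normalization, when 9 rose and 6 fell, 4 rose and 8 fell, and 0 rose and 6 fell.

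Other large cadherin superfamily genes were called about as often as all genes (55.2% and 63.7% against flox): of 16, 5 rose and 4 fell in null cells, 6 rose and 4 fell in null Eα cells, and 3 rose and 4 fell between them, with medians of 0.13, 0.20 and 0.07. Fat3 and Dchs1, giant cadherins of planar tissue organisation, rose by 1.52 ± 0.17 and 1.01 ± 0.12 against flox in null cells (limma adjusted p = 2.45e-05 and 3.86e-05) and by 1.53 and 0.64 in null Eα cells. Clstn3, a synaptic calsyntenin, fell in both, with differences of -0.81 ± 0.08 and -1.30 ± 0.08 (adjusted p = 1.56e-05 and 7.08e-07).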

How the data were processed

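RNA was measured on 9 Affymetrix whole-transcript arrays, 3 per group. The authors deposited log2 values made with RMA (version not given), per the submitters' processing notes; whether the 9 arrays were normalized together is not given in the sources used here, and if groups were normalized apart, that step enters every difference. Of 35556 features, 21789 had 1 gene symbol in the platform annotation, 1621 had several and 12146 were not listed. For each gene the feature with the highest mean was kept, which left 19938 genes. The number of arrays limits the precision.

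A linear model with 1 mean per group was fitted by limma 3.58.1 under R 4.3.3 (lmFit, then eBayes; the 9 arrays together, no covariate, 6 residual and 4.04 prior degrees of freedom), adjusted by Benjamini-Hochberg over all genes within a comparison and called at an adjusted p under 0.05. Errors after ± are standard errors. An exact two-sided permutation test over arrays can give no p below 0.1 here. Figures were drawn with matplotlib 3.10.9.

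The protocadherin genes, the gene lists and the tests were chosen with earlier results of these data known, and the lists are no independent evidence. Each list's 3 called genes with the smallest p in null against flox were named, with all protocadherins, their 5 nearest tested neighbours on each side and the 3 genes most like each member called in at least 2 comparisons; Dcn, Postn, Twist2, Lum, Nes, Ncam1, Sox1, Pou5f1 and Cdh5 were named after their values were seen. Chromosome numbers and gene order came from a RefSeq gene table. The labels do not say whether arrays with the same replicate number belong together, so the main fit did not pair them. Deviations from the group means correlated at -0.035 to 0.258 between same-numbered arrays of different groups. Different-numbered arrays were not compared, so this does not settle whether they were paired. Alternatives changed the normalization, centring, filter, feature rule, prior, samples in the fit and replicate block, or left out each array in turn.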

Additional observations from a re-analysis of the deposited data

Results flagged for a closer look

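The 1 feature that covers the Pcdha genes together (transcript cluster 10455019, 14 symbols) stood outside the comparisons of single genes. It read 4.63, 4.65 and 4.56 in flox, 4.91, 4.75 and 4.78 in null, and 4.85, 4.83 and 5.50 in null Eα cells. Both groups without β-catenin lay above every flox array. In either direction, 67.4% of all genes did not overlap flox in null and 69.5% in null Eα cells. The differences from flox were 0.20 in null (limma adjusted p over all features = 0.337) and 0.45 in null Eα cells (adjusted p = 0.046), and null Eα replicate 3 was the highest array. Without it the null Eα difference was 0.23 (adjusted p = 0.0346), and without null Eα replicate 1 or 2 it was 0.55 or 0.56, alternatives added after seeing the data. Genes with a mean under the lower quartile had median differences from flox of 0.12 in null and 0.22 in null Eα cells. The feature was not fitted after quantile normalization, and which Pcdha gene gave the signal was not tested.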

How the results depend on the processing

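Counts of called genes moved by over 1.5 times as follows. After quantile normalization, Pcdhb calls were 5 in null against flox, 10 in null Eα against flox and 2 in null Eα against null, and with array medians aligned 12 in null Eα against flox. With each array centred on its tested genes, a setting added after seeing the data, 17 Pcdhb genes were called in null against flox. With only the groups compared, null Eα against null gave 2 Pcdhb and 3 non-clustered calls, and with each chromosome centred the non-clustered calls were 10 in null Eα against flox and 3 in null Eα against null, where 52.5% and 25.1% of all genes were called higher and 22.8% and 14.5% lower. With dim genes left out, 2 non-clustered genes were left and 2 were called in each comparison, no Pcdhb gene was left, so none has a value, and 49.1% of the remaining genes were called in null Eα against null. Chromosome centring changed the split in null against flox from 5285 higher and 5719 lower to 8495 and 4855, in null Eα against flox from 6399 and 6295 to 10460 and 4548 (85.2% of dim genes higher), and in null Eα against null from 2721 and 3609 to 5002 and 2897. Aligning array medians changed the split in null Eα against flox to 4674 higher and 6987 lower, and centring on tested genes gave 7845 and 5824, and 7121 and 5205 in null against flox.

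Leaving out 1 array at a time gave 9 to 14, 13 to 18 and 1 to 6 Pcdhb calls, 6 to 9, 6 to 7 and 3 to 6 non-clustered calls, and 47.8% to 58.4%, 54.1% to 65.4% and 23.7% to 39.4% of genes called, in null against flox, null Eα against flox and null Eα against null; the lowest non-clustered count, 3, came without null replicate 2 or null Eα replicate 2. The replicate block gave 12, 19 and 4 Pcdhb and 9, 6 and 5 non-clustered calls. Shares of all genes called are not given here for the replicate block or for only the groups compared. The member counts under these settings therefore cannot be read as more or less than those of all genes. It added calls for Pcdhb4 (0.32 and 0.35, null against flox and null Eα against null), Pcdhb10 (0.24) and Pcdh12 (0.34), and lost Pcdhb13 (0.19) and Pcdhb18 (0.22).

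Signs turned in small differences. Quantile normalization turned Pcdhb1 (-0.07), Pcdhb12 (-0.01), Pcdhb13 (-0.05) and Pcdhb14 (-0.01) in null against flox, Pcdhb13 (-0.02, called as deposited), Pcdh1 (-0.04) and Pcdh8 (-0.05) in null Eα against flox, and Pcdhb9 (-0.01), Pcdhb11 (-0.01) and Pcdhb20 (-0.03) in null Eα against null. Aligned medians turned Pcdh1 (-0.004), Pcdhb9 (-0.03), Pcdhb11 (-0.001) and Pcdhb20 (-0.03). Centring on tested genes turned Pcdh8 (0.07) and Pcdhb9 (-0.000), and chromosome centring Pcdh8 (0.07), Pcdh19 (0.09) and Pcdh10 (0.21). With 1 array left out at a time, Pcdh8 ranged from -0.13 to 0.14 in null against flox and Pcdh1 from -0.14 to 0.23 in null Eα against flox, and in null Eα against null Pcdhb9 from -0.07 to 0.09, Pcdhb10 from -0.04 to 0.12, Pcdhb11 from -0.07 to 0.13, Pcdhb19 from -0.24 to 0.07, Pcdhb20 from -0.10 to 0.08, Pcdhb22 from -0.02 to 0.31 and Pcdh10 from -0.10 to 0.07. The cause was not tested.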
